A study of Mus musculus with 9 samples.

Results

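The 9 genes described here are expressed in atrial heart muscle, the thin-walled muscle of the upper heart chambers, though not all of them only there. They are followed through 9 RNA sequencing libraries of mouse aortic arch. They were taken by name from the 21989 genes of the deposited table, and all 9 were found. Nppa and Nppb encode the atrial and the B-type natriuretic peptide. Myl4 and Myl7 encode the essential and the regulatory myosin light chain of atria. Sln and Pln encode sarcolipin and phospholamban, Gja5 encodes connexin 40, and Tbx5 and Nkx2-5 encode transcription factors of the heart.

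The libraries form 3 groups of 3. High dose libraries came from ApoE-/- mice on high-fat diet that were gavaged with 5.12 g/kg/day of ZCL for 15 weeks. The series title names Ziziphora clinopodioides Lam., a plant of the mint family. Model libraries came from ApoE-/- mice on the same diet for 15 weeks without ZCL. Control libraries are from C57BL/6J mice that ate standard diet, so that genotype and diet differ together between model and control. The series describes 20 mice in each group. The labels do not say whether a library holds 1 mouse or several, or that libraries of a group are separate animals, so p-values reflect no more than how far these samples spread, and that spread may be technical.

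Atrial muscle cells store the precursor of the atrial natriuretic peptide in granules and release it when the chamber wall is stretched. The protease corin cuts it to the active peptide, which acts through the guanylyl cyclase receptor NPR1 on kidney and vessels, while NPR3 clears it. Sarcolipin and phospholamban are small membrane proteins that hold back SERCA, the pump that returns calcium to the sarcoplasmic reticulum. Sarcolipin is the atrial and skeletal muscle form, while phospholamban is found in the whole heart and in smooth muscle. Connexin 40 forms gap junctions between atrial muscle cells and between endothelial cells of arteries. TBX5 and NKX2-5 bind DNA side by side and activate genes of heart muscle, Nppa among them. In mice, heart muscle of atrial type also runs along the pulmonary veins.

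The window before the Nppa start is printed because both factors among the 9 genes have known recognition letters in it, and that of Myl7 because it is the most abundant of the 9. The sequences are the 250 bases before the start in RefSeq, build GRCm38.p6, read 5′ to 3′ on the strand of the gene. Capitals mark matches, searched on both strands, to 4 short motifs. The T-box half-site was searched as AGGTGTGA. The core of the site bound by NKX2-5 was searched as the letters AAGTG wherever they stood in a window. The site bound by factors of the GATA family, which work together with both of these proteins in heart muscle, was searched as GATAA. The box that helps to place the start of transcription at many strongly expressed genes was searched as TATAAA.
Nppa, chr4:148000472-148000721, plus strand: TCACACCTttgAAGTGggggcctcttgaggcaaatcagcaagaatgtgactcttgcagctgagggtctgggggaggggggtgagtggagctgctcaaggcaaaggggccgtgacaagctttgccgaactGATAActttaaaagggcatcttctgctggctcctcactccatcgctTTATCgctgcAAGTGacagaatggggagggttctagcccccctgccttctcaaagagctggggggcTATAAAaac
Myl7, chr11:5898783-5899032, minus strand: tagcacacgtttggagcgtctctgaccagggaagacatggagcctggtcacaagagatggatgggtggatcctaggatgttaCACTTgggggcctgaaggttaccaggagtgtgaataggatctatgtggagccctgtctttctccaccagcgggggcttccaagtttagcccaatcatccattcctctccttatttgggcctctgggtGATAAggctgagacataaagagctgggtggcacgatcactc

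In the Nppa window the T-box letters begin 250 bases before the start, and an NKX core begins 239 bases before it, with no overlap between them. A second NKX core begins 65 bases before the start, GATA letters begin 121 and 75 bases before it, and TATA letters 9 bases before it. The T-box half-site occurs in 1.12% of all 32851 windows of this length in the table, the NKX core in 40.7%, GATA in 22.6% and the TATA letters in 12.4%. The T-box half-site and the NKX core occur together in 0.441% of windows. Of the 9 genes 7 have a window in the table. The NKX core was found in 5 of these 7, GATA in 4, the TATA letters in 3 and the T-box half-site in 1, that of Nppa. The Myl7 window holds 1 NKX core, 168 bases before the start, and 1 GATA match, 41 bases before it. The Nppb window holds GATA letters 94 and 83 bases and TATA letters 31 bases before the start. Such matches describe letters and do not show binding.

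Nppb and Nppa are neighbours on chromosome 4, and Myl4 and Myl7 lie far apart on chromosome 11. In GRCm38, Nppb spans 147985788 to 147987205 and Nppa 148000722 to 148002079, both on the plus strand, with 13516 bases between them. Clcn6, a chloride transporter gene on the minus strand, has its 3′ end 2179 bases beyond Nppa. Clcn6 stood at 7.93, 3.73 and 2.24 FPKM (fragments per kilobase of gene, scaled to the size of the library) in high dose 1, 2 and 3, at 2.10, 2.04 and 1.86 in model, and at 2.52, 4.17 and 2.44 in control. It therefore did not follow the levels of its neighbour Nppa given below. Pln (chromosome 10, 53337667 to 53345987, plus strand) lies inside Cep85l on the minus strand, and the strand setting of the counting is not given in the sources used here. Cep85l stayed between 0.591 and 2.66 FPKM in all 9 libraries. Gja5 (chromosome 3, 96904693 to 97077416) overlaps the start of Gpr89 on the opposite strand, so reads of both could be mixed.

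The libraries differed in the levels of heart muscle, airway and skeletal muscle genes before any gene of the 9 is considered. Myh6 encodes a myosin heavy chain found in heart muscle. Its level was 634 and 1554 FPKM for high dose 2 and 3, 2729 in control 1 and 807 in control 2, and 1.85 to 6.34 in the other 5 libraries. Summed over 10 heart sarcomere genes, these 4 libraries held 5306 to 16998 FPKM and the others 28.1 to 83.4. Airway and lung genes reached a sum of 24354 FPKM for high dose 2 and 8627 for control 2, against at most 79.5 elsewhere. Fast skeletal muscle genes summed to 9724 FPKM in high dose 2 and to at most 445 elsewhere. The contractile smooth muscle genes of the labelled tissue were present in every library, at a sum of 458 FPKM in high dose 1 and of 1180 to 4457 elsewhere. In tissue libraries of this kind, fewer cells of a type and less RNA per cell cannot be told apart. Apoe was lower in each ApoE-/- library, at 30.3, 93.7 and 25.4 FPKM in high dose and 18.9, 33.4 and 24.5 in model, than in the controls, at 829, 1006 and 340 FPKM.

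Depth relative to the deepest library, model 1, was read from the steps between low FPKM values. It was 77.2%, 68.6% and 70.3% in high dose 1, 2 and 3, 80.8% and 71.1% in model 2 and 3, and 76.1%, 56.3% and 61.5% in control 1, 2 and 3. After this correction each of the 9 genes had values that were whole multiples of 1 step, to within 0.01, which gives the smallest set of fragment counts that fits them. Intervals from such counts cover counting error only, since fragments without molecular identifiers are not independent molecules.

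The natriuretic peptide genes were high in 4 libraries and low in 5. Nppa had 2.17, 1433 and 1874 FPKM in high dose 1, 2 and 3, 9.35, 7.72 and 8.44 in model, and 6483, 824 and 2.77 in control. High dose 1 and control 3 lay below the 3 model libraries, and every other library of those groups lay far above them, so the groups overlapped. In control 1 Nppa was the third most abundant gene in the table and rested on 179260 fragments, against 61 to 340 fragments in the 5 low libraries. Nppb had 0.294, 65.1 and 355 FPKM in high dose, 0.568, 0.352 and 0.520 in model, and 407, 44.2 and 0.0462 in control. The Nppb value of control 3 was a single fragment, and those of high dose 1 and model 1, 2 and 3 were 8, 20, 10 and 13 fragments, in that order. The lowest of the 4 high libraries exceeded the highest of the other 5 by 88.1 times for Nppa and 77.7 times for Nppb.

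Both atrial light chains had the same division. Myl7 had 4.78, 3155 and 4632 FPKM in high dose, 23.3, 10.7 and 10.7 in model, and 6861, 2540 and 6.39 in control. It was among the 8 most abundant genes in each of the 4 high libraries and second in control 1. Myl4 had 2.68, 537 and 1131 FPKM in high dose, 5.83, 4.83 and 6.66 in model, and 2190, 463 and 3.21 in control. High dose 1 was the lowest of all 9 libraries for both light chains, at 46 fragments of Myl7 and 90 of Myl4. The lowest high library exceeded the highest low one by 109 times for Myl7 and 69.6 times for Myl4.

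**Figure D1:**
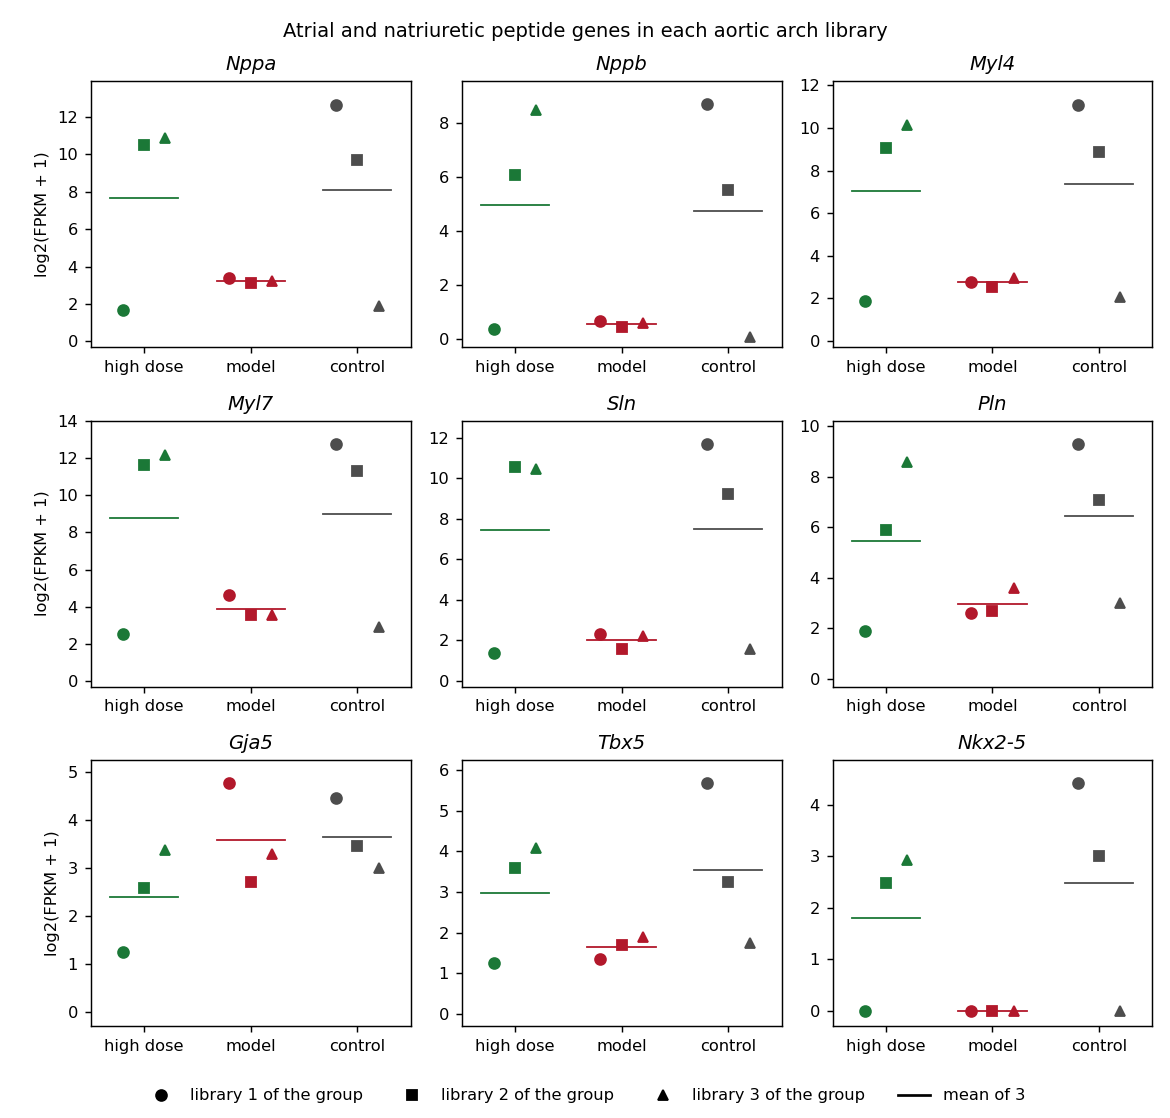
Level of each of the 9 genes as log2(FPKM + 1) in high dose, model and control. Points are single libraries (circle 1, square 2, triangle 3) and lines are means of 3. In each gene but Gja5, high dose 1, control 3 and the model libraries all lie below the other 4 libraries.

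The SERCA inhibitors differed in how far they fell between libraries. Sln had 1.53, 1478 and 1410 FPKM in high dose, 3.91, 1.91 and 3.59 in model, and 3271, 604 and 1.92 in control. The gap between the high and the low libraries was the widest of the 9 genes with a value above 0 throughout, at 154 times. Pln had 2.69, 58.8 and 382 FPKM in high dose, 5.06, 5.50 and 11.1 in model, and 623, 133 and 7.08 in control, with a gap of 5.29 times. Pln was above Sln in every low library and below it in every high one. The ratio of Sln to Pln was 25.1 and 3.69 for high dose 2 and 3, 5.25 in control 1 and 4.56 in control 2, and 0.272 to 0.774 in the other 5 libraries. High dose 2 is also the library with the highest fast skeletal muscle sum, and Sln is a skeletal muscle gene too. The part of skeletal muscle in its Sln level was not tested.

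The transcription factors were expressed at far lower levels. Nkx2-5 had 4.61 and 6.59 FPKM for high dose 2 and 3, with 20.4 and 7.00 in control 1 and 2, from 114 to 560 fragments. In the other 5 libraries it is listed at 0, where a limit of 3 fragments allows up to 0.0833 to 0.135 FPKM. The lowest value of 8 genes used in every cell, Actb, Gapdh and Tbp among them, was 11.0 FPKM in any library. Against a floor of 3 fragments per model library, the Nkx2-5 mean was at least 36.9-fold higher in high dose and 90.4-fold higher in control. These bounds cover counting error only and rest on the 4 high libraries, since high dose 1 and control 3 were at 0 like model. Neither difference passed (limma adjusted p = 0.461 for high dose against model and 0.761 for model against control). Tbx5 had 1.38, 11.1 and 15.9 FPKM in high dose, 1.53, 2.24 and 2.72 in model, and 50.1, 8.43 and 2.33 in control. Unlike Nkx2-5 it kept 130 to 236 fragments in each of the 5 low libraries. The ratio of Tbx5 to Nkx2-5 was 2.42 and 2.41 for high dose 2 and 3, 2.45 in control 1, and 1.20 in control 2.

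Gja5 did not share the division. It had 1.37, 4.95 and 9.35 FPKM in high dose, 26.2, 5.47 and 8.80 in model, and 20.96, 9.94 and 7.00 in control. Model 1, low in heart muscle genes, was the highest library, and high dose 2, rich in them, was the second lowest. The endothelial genes Pecam1, Cdh5, Vwf, Kdr and Tek summed to 261, 181 and 331 FPKM in high dose, 356, 368 and 419 in model, and 328, 364 and 373 in control. The arterial endothelial list summed to 31.3, 39.2 and 69.9 FPKM in high dose, 77.0, 59.2 and 54.3 in model, and 52.2, 68.3 and 57.5 in control. High dose 1 and 2 were the lowest for Gja5 and for both lists, and the part of endothelial content in the Gja5 level was not tested.

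Setting each gene but Nkx2-5, listed at 0 in the 5 low libraries, against Myh6 in the same library gave 3 patterns. High and low libraries differ in Myh6 by definition, so a gene that does not follow Myh6 has a higher ratio in the low ones. The ratio of Nppa to Myh6 was 2.26 and 1.21 for high dose 2 and 3, 2.38 and 1.02 for control 1 and 2, and 0.997 to 2.68 in the 5 libraries low in Myh6. For Myl7 the ratio was 2.51 to 4.98 in the 4 high libraries and 2.19 to 3.71 in the low ones. For Sln it was 0.749 to 2.33 and 0.617 to 1.04, and for Nppb 0.0547 to 0.228 and 0.0249 to 0.137. The lowest of these, that of Nppb in control 3, rests on 1 fragment, with an exact 95% binomial interval of 0.000627 to 0.141. For these 4 genes the traces in the low libraries thus had ratios to Myh6 whose range overlapped that of the high levels.

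Myl4 formed an intermediate case, with a ratio to Myh6 of 0.574 to 0.847 in the 4 high libraries and 0.920 to 1.75 in the low ones, all 5 of them higher by a narrow margin. For the last pattern the ratio was also higher in all 5 low libraries, by a wider one. Pln had 0.0928 to 0.246 in the high libraries and 0.798 to 3.82 in the low ones. For Tbx5 the ratios were 0.0102 to 0.0184 and 0.242 to 1.26, and for Gja5 0.00602 to 0.0123 and 0.628 to 4.13. In the low libraries these 3 genes therefore had levels above the proportion to Myh6 seen in the high ones. Myh6 defines the low libraries, so a gene without the division, such as Gja5, comes out this way in any case.

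**Figure D2:**
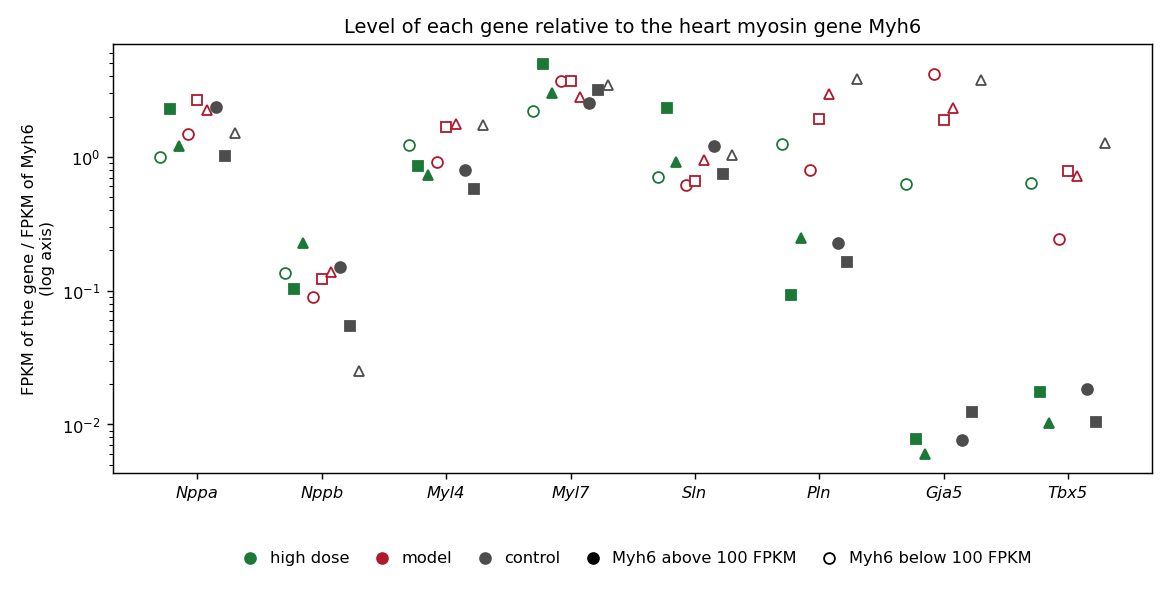
FPKM of each gene divided by FPKM of Myh6 in the same library, on a log axis; Nkx2-5 is left out because it is listed at 0 in 5 libraries. Filled symbols are the 4 libraries above 100 FPKM of Myh6 and open symbols the other 5 (circle, square and triangle are libraries 1, 2 and 3 of a group); filled and open symbols overlap for Nppa, Nppb, Myl7 and Sln and are apart for Myl4, narrowly, and for Pln, Gja5 and Tbx5.

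No difference between groups passed the test. Differences were tested with limma on log2(FPKM + 1) over the 12895 genes with at least 1 FPKM in at least 3 libraries, in 1 fit of all 9 libraries, at a Benjamini-Hochberg adjusted p under 0.05. All 9 genes were tested, and Nppb and Nkx2-5 passed the filter through the 4 high libraries alone. In high dose against model 0 of the 9 passed, as did 0 of all genes tested (0%), while 0 of the 9 had an unadjusted p under 0.05, as did 1729 of all genes (6.86% higher and 6.55% lower). In high dose against control 0 of 9 passed and again 0 of all genes (0%), with 0 of the 9 and 701 of all genes under an unadjusted 0.05 (2.64% higher and 2.8% lower). In model against control 0 of 9 passed and 0 of all genes (0%), with 0 of the 9 and 821 of all genes under an unadjusted 0.05 (3.62% higher and 2.75% lower). Groups did not overlap in 0 of the 9 genes in any comparison. Over all genes tested, high dose libraries lay entirely above model in 11.7% and entirely below in 10.9%, high dose above control in 3.66% and below in 5.02%, and model above control in 6.91% and below in 9.06%.

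The estimates were large and their errors were large too. Nppa averaged 1103 ± 979 FPKM in high dose, 8.50 ± 0.816 in model and 2436 ± 3528 in control (SD, n = 3 each). On the log2(FPKM + 1) scale its difference was 4.43 ± 2.99 (SE) for high dose against model, with limma adjusted p = 0.507. It was -0.41 ± 2.99 for high dose against control (limma adjusted p = 0.989) and -4.84 ± 2.99 for model against control (limma adjusted p = 0.792). These comparisons share samples, so the opposite signs of the first and the last are not independent.

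Sln had the largest estimates of the 9, at 5.43 ± 2.94 for high dose against model (limma adjusted p = 0.423) and -5.48 ± 2.94 for model against control (limma adjusted p = 0.764). It averaged 963 ± 833 FPKM in high dose, 3.14 ± 1.07 in model and 1293 ± 1740 in control (SD, n = 3 each). Gja5 averaged 5.22 ± 4.00, 13.5 ± 11.1 and 12.6 ± 7.36 FPKM in high dose, model and control, and its differences were -1.19 ± 0.680 for high dose against model and -0.052 ± 0.680 for model against control (SE). The other 6 genes had differences of 1.33 to 4.87 for high dose against model and of -5.08 to -1.91 for model against control.

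Over the 9 genes the median log2 difference was 4.28 for high dose against model (8 higher, 1 lower), against 0.00080 over all genes tested. It was -0.41 for high dose against control (1 higher, 8 lower), against 0.0022 over all genes, and -4.18 for model against control (0 higher, 9 lower), against -0.010 over all genes. The exact two-sided permutation test of single genes gave p from 0.3 to 0.4 for high dose against model, 0.2 to 1.0 for high dose against control and 0.2 to 1.0 for model against control, where 3 against 3 cannot go below 0.1. Single libraries set the direction for high dose against control, where the median was 2.26 without high dose 1, 1.56 without control 1, 0.39 without control 2 and -2.72 without control 3. The median for high dose against model was 6.70 without high dose 1 and 2.65 without high dose 3, and that for model against control was -2.22 without control 1 and -6.52 without control 3.

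**Figure D3:**
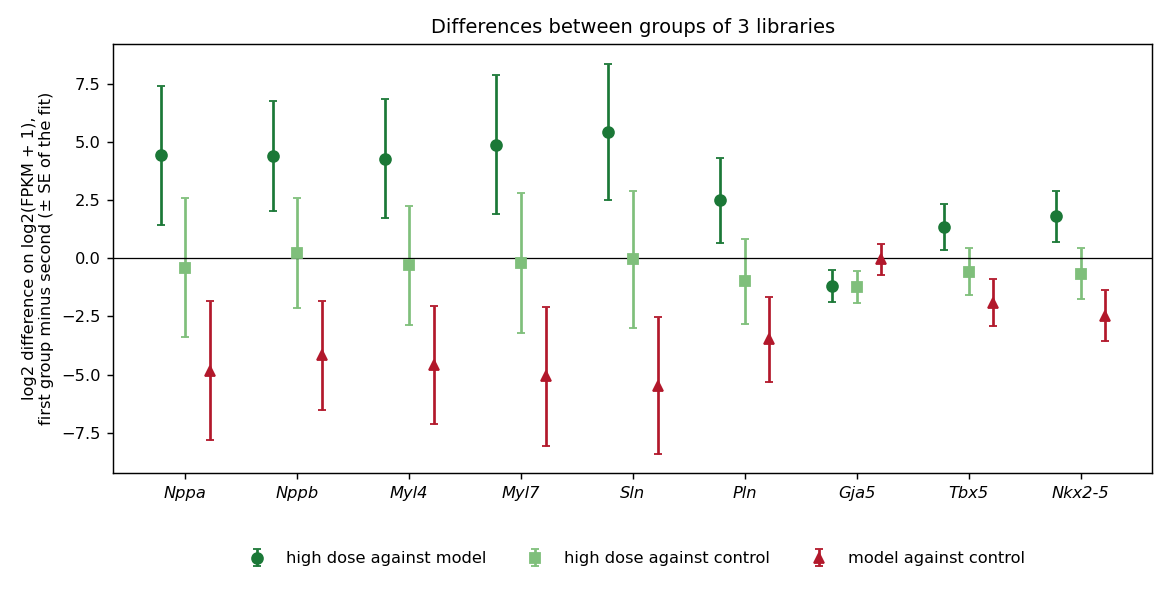
Difference between groups on the log2(FPKM + 1) scale for each gene, with the standard error of the limma fit as bars; positive means higher in the group named first. The bars for high dose against control cross 0 in 8 of the 9 genes, and no difference passed an adjusted p of 0.05.

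A pair of settings moved these results. With a weight estimated per library, 0.379 for control 3 and 5.92 for model 2 at the extremes, 8 of the 9 genes, all but Gja5, passed as lower in model than in control, at limma adjusted p from 0.0434 to 0.0472. In that fit 3.28% of all genes passed as lower and 2.02% as higher, and the library given the least weight was the control library low in Nppa. With the same weights 0 of the 9 passed in high dose against model (0.031% of all genes higher, 0.0155% lower) and 0 in high dose against control (0% of all genes). Passing under these weights was not particular to the 9 genes. In model against control the weights also gave lower calls to 9 of 10 heart sarcomere genes, 5 of 9 tested genes of the atrial list below, 4 of 14 calcium handling genes, 3 of 14 heart transcription factor genes, 1 of 4 ventricular genes and 1 of 8 gap junction and conduction genes. The peptide pathway list had 1 call in each direction among 10 genes tested. Without the 4 libraries above 100 FPKM of Myh6, which leaves high dose 1 and control 3 as lone libraries assumed to vary like the model libraries, the median difference was -0.87 for high dose against model and 0.50 for model against control, with Nkx2-5, listed at 0 in all 5 libraries left, counted as a difference of 0. Nppa then was lower in high dose 1 than in model (2.17 FPKM against 7.72 to 9.35), at a log2 difference of -1.58. The removal rested on Myh6, which rose and fell with Nppa over the libraries. Each comparison of this fit rests on at least 1 lone library. Neither this difference nor the shares of genes passing that follow can therefore show a difference between groups. In that fit 4.58% of all genes passed in the same comparison. None of the 9 passed in high dose against control (1.78% of all genes) or in model against control (0% of all genes).

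Some other atrial genes showed differences among the 4 libraries rich in heart muscle genes. Mybphl, which encodes a myosin-binding protein of atria, had 79.2 FPKM for high dose 2 and 116 for high dose 3, 339 and 74.1 for control 1 and 2, and 0.138 to 0.445 in the other 5 libraries. Bmp10, a growth factor gene that in adult mice is expressed in the right atrium, had 158 FPKM in control 1 and 4.63 in control 2. In high dose 2 it is listed at 0 and in high dose 3 it stood at 0.102, although Nppa stood at 1433 and 1874 FPKM there. Of these libraries the control pair was thus the higher for Bmp10. The difference between the pairs was not tested.

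Sbk3, a kinase gene of the atrial list, had 6.86 and 28.0 FPKM for high dose 2 and 3, with 127 and 18.2 in control 1 and 2. Kcnj3 and Kcnj5 encode the subunits of the acetylcholine-gated potassium channel of atria. Kcnj5 had 2.36 and 5.51 FPKM for high dose 2 and 3, with 27.1 and 4.57 in control 1 and 2, and at most 0.0807 elsewhere. Kcnj3 kept 2.22 FPKM in high dose 1, as high as Nppa there. Not every gene of the atrial list divided the libraries. Kcna5 was lowest in high dose 2 at 4.36 FPKM and highest in model 3 at 16.6. Nr2f2 ranged from 8.40 to 15.6 FPKM and Cacna1d from 0.382 to 1.93, both without that division. Nr2f1 was divided narrowly, at 2.60 to 3.95 FPKM in the 4 high libraries and 0.734 to 1.91 in the low ones. Of the 10 genes of the atrial list 9 were tested, with 0 passed in any comparison of the unweighted fit. Their median log2 difference was 1.41 for high dose against model (8 higher, 1 lower), -0.52 for high dose against control (1 higher, 8 lower) and -2.07 for model against control (1 higher, 8 lower).

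Ventricular genes did not keep a fixed proportion to the atrial ones. Myl2, the regulatory light chain of ventricles, had 0.504 FPKM for high dose 2 and 457 for high dose 3, with 26.7 and 236 in control 1 and 2. Relative to its atrial counterpart Myl7 the level of Myl2 was 0.000160 and 0.0986 for high dose 2 and 3, and 0.00389 and 0.0928 for control 1 and 2. Irx4, a transcription factor gene of ventricles, was at 0.124 and 3.15 FPKM for high dose 2 and 3, and at 0.032 and 0.54 in control 1 and 2. Both genes were lower in high dose 2 than in high dose 3, and lower in control 1 than in control 2, although in control 1 Myl2 was above the 0.0611 to 4.74 FPKM of the 5 libraries low in Myh6. Myh7, the heavy chain of ventricles and slow skeletal muscle, did not follow them in control, with 7.86 and 61.6 FPKM for high dose 2 and 3, and 31.3 and 19.6 for control 1 and 2.

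Myl3, the essential light chain of ventricles and of slow skeletal muscle, stood at 782 FPKM in high dose 2, above the 217 of high dose 3 and the 50.6 and 86.6 of control 1 and 2. That library also had 3707 FPKM of Acta1 and 1635 of Tnnt3, genes of skeletal muscle. Hey2, also of the ventricular list, did not divide the libraries. It was lowest in high dose 2 at 5.94 FPKM and highest in model 1 at 24.5. Of the 5 ventricular genes 4 were tested and 0 passed, with medians of 2.64 for high dose against model (3 higher, 1 lower), -0.33 for high dose against control (1 higher, 3 lower) and -3.22 for model against control (1 higher, 3 lower).

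**Figure D4:**
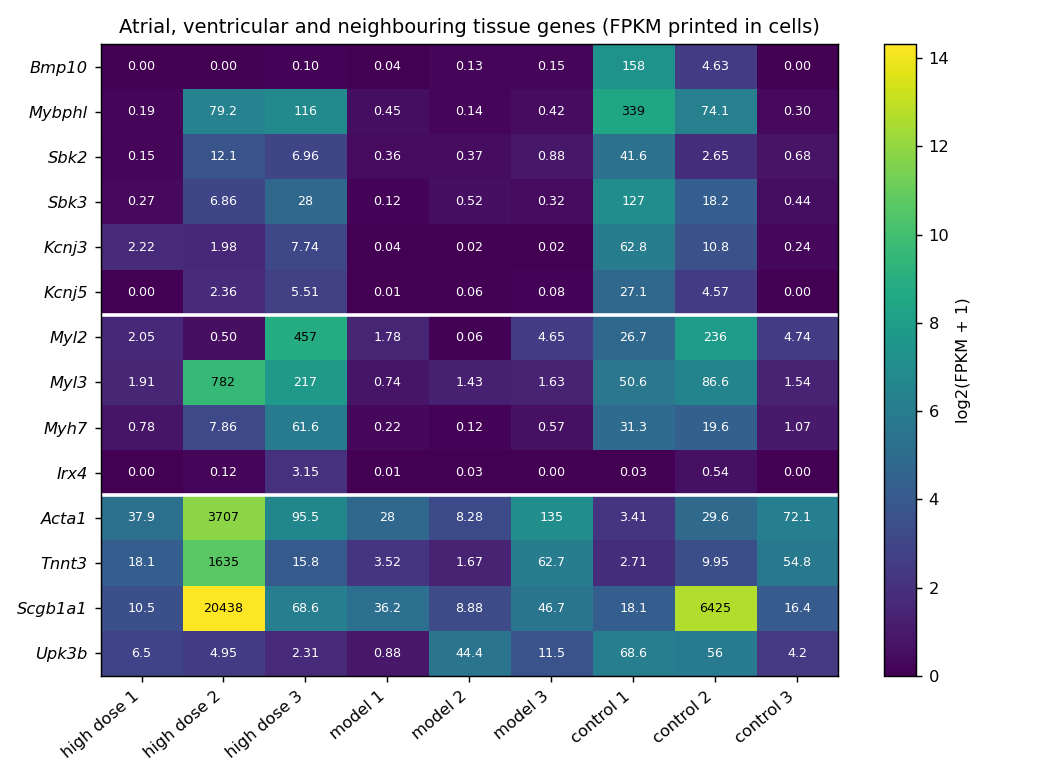
FPKM of selected atrial genes (upper block), ventricular genes (middle block) and genes of skeletal muscle, airway and mesothelium (lower block) in each library. Colour is log2(FPKM + 1). The upper block leaves out Kcna5, Nr2f2, Nr2f1 and Cacna1d of the atrial list, and the middle block leaves out Hey2 of the ventricular list. Bmp10 was highest in control 1 at 158 FPKM, and Myl2 was at 0.504 in high dose 2.

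Of the natriuretic peptide pathway, the protease gene Corin followed the heart muscle genes, and the protease gene Furin and the main receptor gene did not. Corin, the protease that activates the atrial peptide, had 0.173, 8.94 and 33.7 FPKM in high dose, 0.107, 0.0989 and 0.313 in model, and 107, 26.9 and 0.173 in control. Furin, a protease made in most cells that also cuts natriuretic peptide precursors, stayed between 15.6 and 24.6 FPKM in all 9 libraries.

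Npr1, the signalling receptor of both peptides, had 36.9, 28.4 and 37.7 FPKM in high dose, 55.9, 57.3 and 47.8 in model, and 32.4, 38.4 and 34.7 in control. The 3 model libraries were above all others. The log2 difference of Npr1 was -0.64 ± 0.195 (SE) for high dose against model, with limma adjusted p = 0.283, and 0.59 ± 0.195 for model against control, with limma adjusted p = 0.708. Neither passed. Npr3, the clearance receptor, had 2.17, 2.25 and 16.3 FPKM in high dose, 3.66, 5.35 and 6.82 in model, and 36.4, 14.1 and 9.51 in control. Model lay below control throughout, at a log2 difference of -1.56 ± 0.696 (SE) and limma adjusted p = 0.761.

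Npr2, the receptor of the C-type peptide, ranged from 20.5 to 33.2 FPKM without a division between groups. Mme, which encodes the peptide-degrading enzyme neprilysin, had 5.90, 1.58 and 2.87 FPKM in high dose, 3.08, 12.9 and 15.1 in model, and 1.16, 4.11 and 16.8 in control. Pde2a, a phosphodiesterase gene that acts on the second messenger of these receptors, had 49.7, 17.8 and 18.1 FPKM in high dose, 20.7, 55.2 and 49.8 in model, and 33.1, 37.2 and 41.7 in control. Of the 13 genes of this list 10 were tested and 0 passed. The medians were -0.40 for high dose against model (2 higher, 8 lower), -0.51 for high dose against control (1 higher, 9 lower) and 0.0085 for model against control (5 higher, 5 lower).

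**Figure D5:**
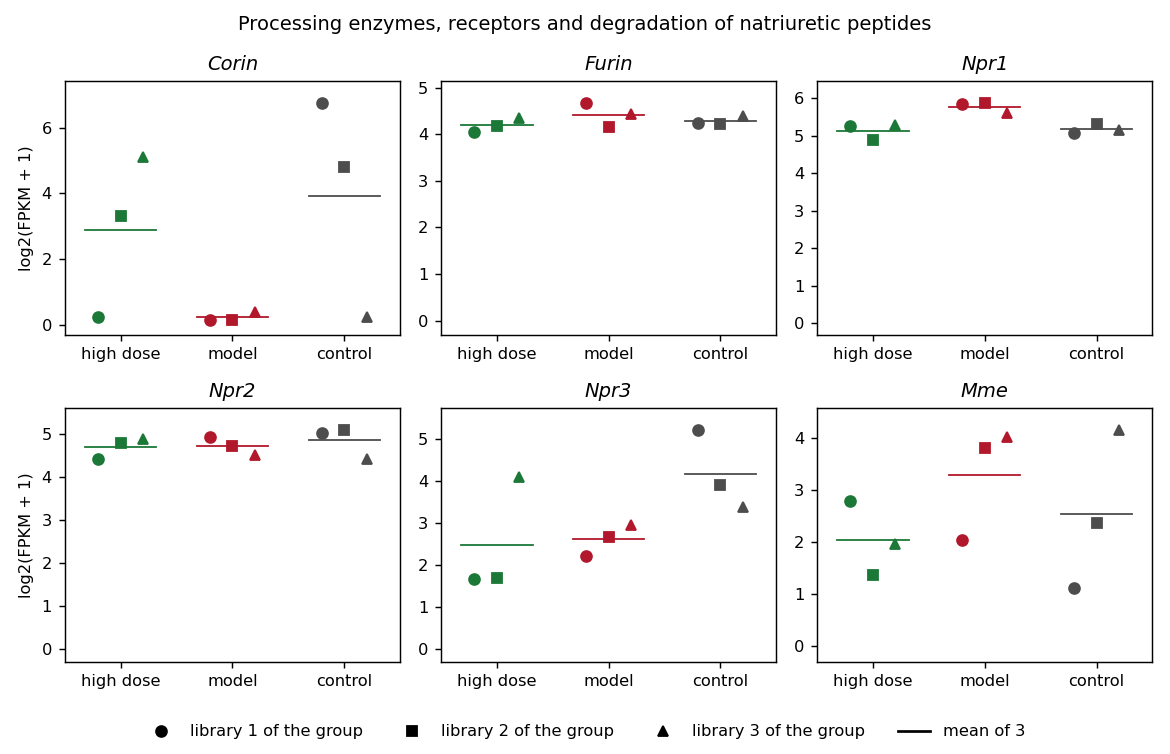
Levels of natriuretic peptide processing, receptor and degradation genes as log2(FPKM + 1) in high dose, model and control; points are libraries and lines means of 3. Npr1 lay between 47.8 and 57.3 FPKM in model and below 39 in the other libraries, and none of the differences passed the test.

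Among other heart transcription factor genes, Gata4, a partner of NKX2-5, had 0.116, 6.90 and 18.1 FPKM in high dose, 0.115, 0.505 and 0.108 in model, and 28.8, 8.39 and 0.0415 in control, the division of Nkx2-5. Gata6 had 2.15, 8.23 and 23.2 FPKM in high dose, 19.2, 9.55 and 4.63 in model, and 35.9, 19.8 and 4.33 in control, without that division. Ankrd1, a stretch-responsive gene of heart muscle, was highest in high dose 3 at 2267 FPKM, above the 1490 of control 1. Hand2, a factor of the heart and of sympathetic neurons, had 103, 23.5 and 23.5 FPKM in high dose, 4.55, 0.157 and 0.387 in model, and 25.1, 50.5 and 8.54 in control. Its log2 difference was 4.26 ± 0.844 (SE) for high dose against model, with limma adjusted p = 0.172, and did not pass. All 14 genes of the list were tested and 0 passed. Medians were 0.68 for high dose against model (8 higher, 6 lower), -0.14 for high dose against control (4 higher, 10 lower) and -0.64 for model against control (4 higher, 10 lower).

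The calcium handling genes included targets of sarcolipin and phospholamban. Atp2a2, which encodes the SERCA pump of heart and smooth muscle, had 55.6, 247 and 496 FPKM in high dose, 76.9, 58.4 and 65.5 in model, and 1403, 246 and 85.3 in control. Its ratio to Pln was 4.20 and 1.30 for high dose 2 and 3, 2.25 and 1.86 for control 1 and 2, and 5.89 to 20.6 in the other 5 libraries. Atp2a1, the pump of fast skeletal muscle, reached 825 FPKM in high dose 2 and at most 59.6 elsewhere. Hrc, a calcium-binding protein gene of the reticulum, reached 77.4 and 90.6 FPKM for high dose 2 and 3, 222 and 46.3 for control 1 and 2, and at most 3.45 elsewhere. Of 15 genes 14 were tested and 0 passed, with medians of 1.44 for high dose against model (12 higher, 2 lower), 0.018 for high dose against control (8 higher, 6 lower) and -0.70 for model against control (1 higher, 13 lower).

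Connexin genes other than Gja5 did not divide the libraries either. Gja1, connexin 43 of heart and smooth muscle, had 20.8, 30.5 and 71.7 FPKM in high dose, 64.7, 59.2 and 62.2 in model, and 92.0, 37.6 and 68.1 in control. Gja4, connexin 37 of endothelium, ranged from 10.5 to 35.1 FPKM, and Gjc1, connexin 45, from 5.44 to 14.1. Of the 11 gap junction and conduction genes 8 were tested and 0 passed, with medians of 0.88 for high dose against model (6 higher, 2 lower), 0.10 for high dose against control (4 higher, 4 lower) and -0.73 for model against control (1 higher, 7 lower).

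The genes whose profiles over the 9 libraries were most like those of each gene were found by the root mean square difference between log2(FPKM + 1) profiles, each centred on its own mean. For Nppa these were Tnni3 (0.46), Myh6 (0.48) and Sln (0.48), where Nppa itself had a standard deviation of 4.20 over the libraries. Myl7 was nearest to Tnnt2 (0.27), Tnni3 (0.37) and Myh6 (0.37), and Myl4 to Tnni3 (0.39), Tnnc1 (0.44) and Mybphl (0.49). Sln was nearest to Myl7 (0.44), Tnnt2 (0.47) and Nppa (0.48), and Nppb to Mybpc3 (0.55), Myl4 (0.56) and Mybphl (0.61).

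Pln had other neighbours, namely Corin (0.49), Mlana (0.51) and Sbk3 (0.60). Tbx5 was nearest to Ppp1r3a (0.19), Alpk2 (0.22) and Atp2a2 (0.27), and Nkx2-5 to Tnni3k (0.11), Asb14 (0.26) and Kcng2 (0.27). Gja5 was nearest to the guidance factor gene Ntn1 (0.23), Pcolce2 (0.26) and the basement membrane collagen gene Col4a5 (0.33), at a standard deviation of 0.98. Ntn1 had 4.13, 9.57 and 13.9 FPKM in high dose, 35.8, 12.0 and 17.6 in model, and 29.2, 17.6 and 12.3 in control, with model 1 and control 1 highest as for Gja5. Among the 9 genes the closest pairs by this measure were Myl7 with Sln (0.44) and Tbx5 with Nkx2-5 (0.46). The measure is not scaled to the spread of a gene, so genes that vary little come out close more easily. The standard deviation was 1.43 for Tbx5 and 1.67 for Nkx2-5, against 4.29 for Myl7 and 4.37 for Sln.

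As a share of all FPKM in a library, the 9 genes together held 0.00420%, 1.37% and 2.13% in high dose 1, 2 and 3, 0.0170%, 0.00875% and 0.0122% in model, and 4.63%, 1.08% and 0.00699% in control. The natriuretic peptide genes alone held 1.60% in control 1. Epicardial and mesothelial genes, which line the heart and the chest cavity, did not follow this order. Their sum was 15.0, 44.3 and 10.9 FPKM in high dose, 1.58, 86.1 and 26.8 in model, and 139, 157 and 8.31 in control. Of the lists for neighbouring tissue, 0 genes passed in any comparison. Their median log2 differences for high dose against model were -0.997 for contractile smooth muscle, 2.31 for fast skeletal muscle, 2.91 for airway and lung, -0.60 for endothelium, -0.75 for arterial endothelium and 0.23 for epicardium and mesothelium. In model against control, in the same order of lists, they were 0.17, 0.060, -2.11, 0.12, -0.027 and -1.35. The 10 heart sarcomere genes had medians of 4.58 for high dose against model (10 higher, 0 lower), -0.093 for high dose against control (4 higher, 6 lower) and -4.44 for model against control (0 higher, 10 lower), and 0 of them passed without the library weights.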

How the data were processed

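Per the labels' protocols, RNA was extracted from aortic arch with TRIzol, and libraries were made from purified messenger RNA with an NEBNext Ultra kit. All 9 libraries carry the same batch label. The authors deposited 1 table of FPKM values, with 21989 genes all marked protein-coding. Builds GRCm38.p5 and mm10 are named in the submitters' processing notes; for the aligner, counting tool and strand setting, the sources used here give nothing. Because FPKM scales by library size, very abundant genes reduce the values of the rest. Groups came from sample titles. Column names were matched to the labels (AS to model, HD to high dose, Contorl to control).

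limma 3.58.1 in R 4.3.3 was run on log2(FPKM + 1), which understates changes of low genes, with empirical Bayes and a trend. No count model was used. The procedure was tested on simulated data with independent normal values per gene. Those lack the shared division of these libraries, so the test does not cover it. Positions came from GENCODE M21 (GRCm38) and promoter windows from RefSeq (GRCm38.p6). Python 3.11.15, pandas 2.3.3, numpy 2.4.6, scipy 1.17.1 and matplotlib 3.10.9 were used.

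Genes and lists were chosen with earlier results of these data known. The rule for naming was all 9 genes, any list gene that passed and otherwise the 3 of highest mean FPKM per list, and the 3 nearest profiles per gene. Kcnj3, Kcnj5, Kcna5, Nr2f2, Nr2f1, Cacna1d, Irx4, Hey2, Gata4, Corin, Furin, Npr3 and Mme fall outside it and were chosen after their values were seen. Clcn6 and Cep85l were chosen for position. Some genes are not reported here. Other settings tried were adding 0.1 in place of 1 before the logarithm, testing all genes, testing those averaging 5 FPKM or more, rescaling by median ratios, quantile normalization, a robust fit, weights per library, fitting just the pair of groups compared, the replicate number as block, dropping each library in turn, and dropping all libraries above 100 FPKM of Myh6.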

Additional observations from a re-analysis of the deposited data

How the results depend on the processing

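With array weights, 684 genes and 8 of the 9 atrial and peptide genes passed in model against control, 6 genes passed in high dose against model, and Nppb turned to -1.02 (log2) in high dose against control. With only the pair of groups compared, 1 gene passed in high dose against model. Without the 4 libraries above 100 FPKM of Myh6, 591 genes and 1 of the 9 passed in high dose against model and 229 genes in high dose against control. With these 4 libraries removed, high dose 1 and control 3 are lone libraries, assumed to vary like the model libraries. The counts of genes passing therefore cannot show a difference between groups. The median of the 9 genes was then -0.87 in high dose against model, with Nppa at -1.58, Nppb -0.19, Myl4 -0.87, Myl7 -1.37, Sln -0.67, Pln -1.08 and Tbx5 -0.39. In model against control it was 0.50, with Nppa at 1.33, Nppb 0.50, Myl4 0.68, Myl7 1.02, Sln 0.46 and Gja5 0.58. Nkx2-5, listed at 0 in all libraries left, entered both medians as 0. Leaving out each library in turn gave 0 to 46 genes in high dose against model, with 46 without high dose 3, and Gja5 differences of -0.64 to 0.39 in model against control. In high dose against control the ranges were -3.50 to 2.59 for Nppa, -2.12 to 2.52 for Nppb, -2.95 to 2.26 for Myl4, -3.25 to 2.92 for Myl7, -3.01 to 3.01 for Sln, -2.72 to 0.79 for Pln, -1.48 to 0.49 for Tbx5 and -1.91 to 0.30 for Nkx2-5. The cause of these changes was not tested. Replicate numbers were not taken to pair the samples. Deviations of same-numbered libraries from their group means correlated over genes between -0.522 and 0.306. With 3 libraries per group such values cannot settle whether the samples are paired. With the replicate block 0 genes and 0 of the 9 passed in each comparison, and the median of the 9 stayed at -4.18 in model against control. The other settings kept the direction of the 9 genes and 0 calls among them, except that Nkx2-5 was not tested, and has no value, where a mean of at least 5 FPKM was required. High dose and control each hold 2 libraries rich in heart muscle genes and 1 low in them, and this spread limits all comparisons, and 1 to 20 fragments of Nppb limit its low values.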
